A study of Homo sapiens with 24 samples.

Results

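Transcript levels of 10 human genes of cysteine and glutathione metabolism were followed across 24 RNA-seq libraries in 8 groups. The genes were taken by symbol from a deposited table of 39786 genes: CBS and CTH of the transsulfuration pathway, CHAC1 and CHAC2 of glutathione breakdown, GCLC, GCLM and GSS of glutathione synthesis, and GSR, GPX2 and GPX4 of glutathione reduction and use. Each symbol matched 1 entry. Messenger RNA was sequenced from 5637, a bladder carcinoma line, and OVCAR8, an ovarian carcinoma line. Each line was grown as neratinib-resistant cells (NR) and as parental cells, and each was given neratinib or control for 24 h, with 3 dishes per group. The 8 groups were thus 5637 NR on neratinib, 5637 NR on control, 5637 parental on neratinib, 5637 parental on control, and the same 4 of OVCAR8. Neratinib irreversibly inhibits the EGFR, ERBB2 and ERBB4 kinases. It was used at 600 nM in 5637 and at 1 µM in OVCAR8, so line and dose cannot be told apart in any difference of drug effect between the lines. NR cells had been free of drug for 1 week before seeding, and whether an NR line is 1 clone is not given in the sources used here. Nothing in the labels says that the dishes came from separate cultures, so p-values describe the spread between these samples, which may be technical.

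Transsulfuration makes cysteine from the homocysteine of the methionine cycle, and cysteine can also enter the cell as cystine. Glutathione is built from glutamate, cysteine and glycine, and it is the main small-molecule thiol with which cells reduce peroxides. ATF4, the transcription factor of the amino acid and stress response, and NRF2, the factor of the oxidant response, are both known to raise genes of this pathway.

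In hg19, the build of the deposited table, CBS (ENSG00000160200.13) lies on chromosome 21 from 44473301 to 44497053 and CTH (ENSG00000116761.7) on chromosome 1 from 70876901 to 70905534. CHAC1 (ENSG00000128965.7) lies on chromosome 15 from 41245160 to 41248710, and CHAC2 (ENSG00000143942.4) on chromosome 2 from 53994929 to 54002333. GCLC (ENSG00000001084.6) lies on chromosome 6 from 53362139 to 53481768, GCLM (ENSG00000023909.5) on chromosome 1 from 94350761 to 94374966, and GSS (ENSG00000100983.5) on chromosome 20 from 33516236 to 33543620. GSR (ENSG00000104687.8) lies on chromosome 8 from 30535583 to 30585443, GPX2 (ENSG00000176153.10) on chromosome 14 from 65405870 to 65409531, and GPX4 (ENSG00000167468.12) on chromosome 19 from 1103936 to 1106787.

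Libraries held 23.8 M to 48.5 M counts. In 5637 all 11 urothelial markers listed lay above 1 CPM (counts per M of the library total) in each group. KRT5, TP63, GATA3 and UPK1B were among them. In each OVCAR8 group 5 of these 11 lay above 1 CPM too, with GATA3 averaging 11.6 to 18.5 CPM. Of 10 ovarian carcinoma markers listed, 7 lay above 1 CPM in each OVCAR8 group and 7 or 8 in each 5637 group. In OVCAR8 the ovarian markers PAX8 and MSLN were present, WT1 averaged 1.23 to 3.71 CPM, and MUC16, SOX17 and EMX2 were near 0, while 5637 groups averaged 2.62 to 31.7 CPM of WT1 and 83 to 369 CPM of MUC16. Summed immune markers stayed at or below 1.22 CPM in every library. Summed fibroblast markers, nearly all COL1A1, were at 44.1 to 270 CPM in 5637 and 736 to 1291 CPM in OVCAR8. OVCAR8 parental control replicate 2 stood apart: its share of counts in genes longer than 8 kb was 14.1%, where the rest of the line had 20.4% to 21.2%, and its share in genes under 1 kb was 5.82%, where the rest had 4.06% to 4.74%. Among the 10 genes, GPX4 reached 324 CPM there, against 164 and 180 CPM in its fellow replicates, and GCLM reached 33.7 CPM, against 53.1 and 45.3 CPM. The log2 ratio of that library to the mean of the other controls ran from -0.55 for GCLM to 0.91 for GPX4. OVCAR8 results are therefore also given without it where it changes them. Fold changes are log2 values from the quasi-likelihood test of edgeR, ± SE, and a gene counts as called at a Benjamini-Hochberg adjusted p of at most 0.05 over all genes tested. All 10 genes passed the filter on low counts in each fit.

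**Figure D1:**
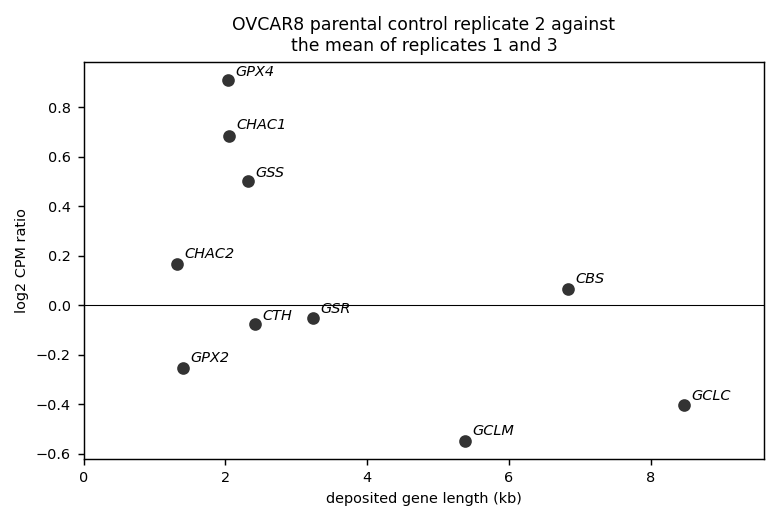
Each point is 1 of the 10 genes, with its deposited length in kb on the x axis and, on the y axis, the log2 ratio of its CPM in OVCAR8 parental control replicate 2 to the mean of replicates 1 and 3. GPX4, CHAC1 and GSS lie above 0 at 0.91, 0.69 and 0.50, and GCLM and GCLC lie below it at -0.55 and -0.40. GPX2, with a length of 1407 bases, lies at -0.25, and CBS, with 6833 bases, at 0.07. CHAC2, GSR and CTH lie at 0.17, -0.05 and -0.07.

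Promoter sequence is shown for 5 genes: CHAC1 and CHAC2 because they are paralogs that moved in opposite directions, CBS because its drug effect differed most between the lines, and GCLM and GPX2 because they held a match to the antioxidant motif. The sequences are the 250 bases before the RefSeq transcript start (GRCh38.p14), read 5′ to 3′ on the strand of the gene, with matched motifs in capitals. They lie at chr15:40953221-40953470 (+) for CHAC1, chr2:53767533-53767782 (+) for CHAC2, chr1:93909431-93909680 (-) for GCLM, chr14:64942746-64942995 (-) for GPX2 and chr21:43076378-43076627 (-) for CBS.
CHAC1: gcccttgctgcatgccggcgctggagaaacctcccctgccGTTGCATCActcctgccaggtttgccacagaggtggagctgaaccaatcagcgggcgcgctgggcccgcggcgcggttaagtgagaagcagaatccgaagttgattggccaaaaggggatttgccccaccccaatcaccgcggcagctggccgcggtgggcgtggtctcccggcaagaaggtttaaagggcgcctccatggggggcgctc
CHAC2: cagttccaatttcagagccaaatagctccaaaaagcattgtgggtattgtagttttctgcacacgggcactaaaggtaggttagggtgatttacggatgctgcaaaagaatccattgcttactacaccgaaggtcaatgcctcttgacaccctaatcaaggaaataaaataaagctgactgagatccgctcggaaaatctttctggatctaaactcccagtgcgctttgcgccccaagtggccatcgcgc
GCLM: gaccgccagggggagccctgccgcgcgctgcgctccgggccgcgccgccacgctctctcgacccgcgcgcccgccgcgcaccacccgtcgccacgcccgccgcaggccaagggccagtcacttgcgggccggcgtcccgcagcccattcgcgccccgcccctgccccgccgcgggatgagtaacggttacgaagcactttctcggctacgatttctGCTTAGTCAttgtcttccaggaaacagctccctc
GPX2: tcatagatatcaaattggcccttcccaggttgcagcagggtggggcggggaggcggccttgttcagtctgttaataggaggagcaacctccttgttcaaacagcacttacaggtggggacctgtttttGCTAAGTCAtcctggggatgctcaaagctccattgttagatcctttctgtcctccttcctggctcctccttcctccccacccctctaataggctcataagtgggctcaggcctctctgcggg
CBS: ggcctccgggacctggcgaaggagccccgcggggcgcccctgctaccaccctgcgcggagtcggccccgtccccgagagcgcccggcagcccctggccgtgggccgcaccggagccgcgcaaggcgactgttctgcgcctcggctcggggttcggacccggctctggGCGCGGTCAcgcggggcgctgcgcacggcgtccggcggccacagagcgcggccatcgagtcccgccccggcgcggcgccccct
The motifs searched on both strands, over 300 bases from 250 before to 50 after each start, were TGATGNAAN, the C/EBP-ATF response element bound by ATF4, and TGACNNNGC, the core of the antioxidant response element bound by NRF2 with small MAF proteins. The RefSeq table matched 8 of the 10 genes, all but GSS and GSR. CHAC1 held 1 match to TGATGNAAN, beginning at position -210 and read on the opposite strand, and 3.61% of all 35116 windows held such a match. Single matches to TGACNNNGC, also on the opposite strand, began at position -34 in GCLM, at -122 in GPX2 and at -83 in the first of 3 CBS windows, and 13.3% of all windows held one. No match of either motif lay in the windows of CTH, CHAC2, GCLC or GPX4, and no match of one motif overlapped one of the other.

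Per length of transcript, the lipid peroxide reductase GPX4 had the highest level of the 10 genes in every group, at a mean of 85.2 RPKM (CPM per kilobase of the deposited gene length) in OVCAR8 NR control to 193 RPKM in 5637 parental control. GSS was the next highest in 7 groups, at 35.2 to 55.3 RPKM, and in OVCAR8 parental neratinib it was at 56.3 RPKM with a range that overlapped that of CBS at 58.7 RPKM. GSR followed GSS directly in 5637 NR control, 5637 NR neratinib and 5637 parental control, and lay at 19.8 to 33.6 RPKM over the 8 groups. GPX2, the gastrointestinal glutathione peroxidase, had the lowest mean level in every group, at 0.163 RPKM in OVCAR8 parental control to 2.27 RPKM in 5637 parental neratinib, and its range met that of a neighbour only in 5637 parental control, where CHAC1 was at 1.21 RPKM and GPX2 at 1.06 RPKM. CBS and CHAC1 changed place between groups: CBS ranked above GSR in all 4 OVCAR8 groups and in 5637 parental neratinib, and at 1.75 RPKM in 5637 parental control it ranked below CHAC2, GCLC and GCLM. CHAC1 ranged over 1.21 to 38.1 RPKM between groups. The levels of CTH, CHAC2, GCLC and GCLM lay at 1.48 to 12.8 RPKM, and GCLC and GCLM overlapped in both 5637 parental groups and in 5637 NR on neratinib.

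**Figure D2:**
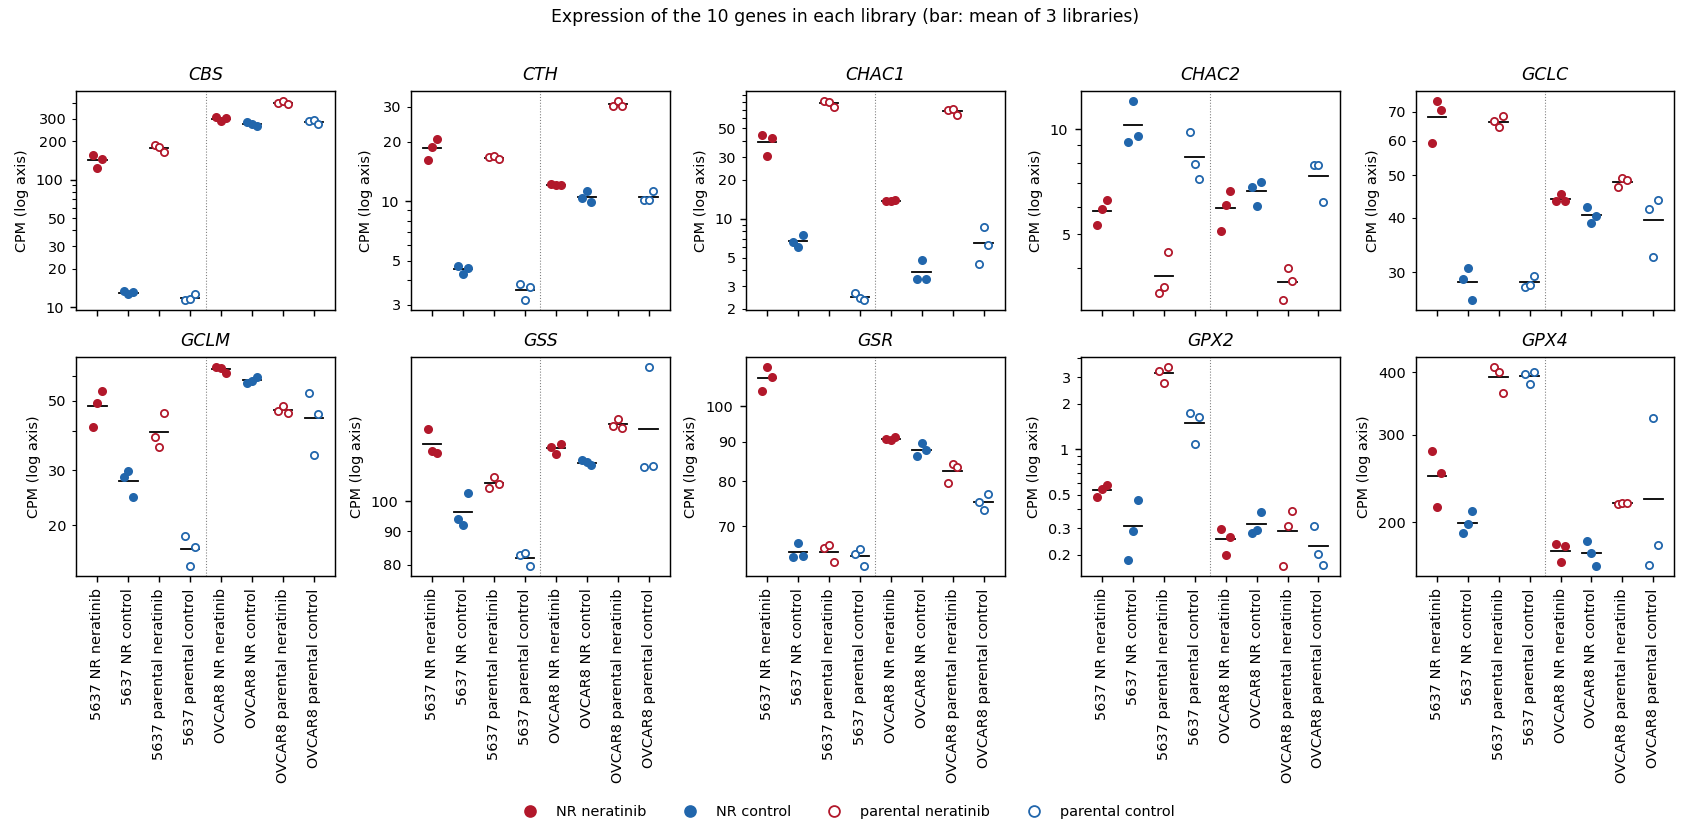
Each panel is 1 gene; the x axis gives the 8 groups, the y axis CPM on a log scale, each point 1 library and each bar the mean of 3 libraries. CBS in 5637 lay at 123 to 185 CPM on neratinib and at 11.5 to 13.4 CPM on control, and OVCAR8 lay at 261 to 412 CPM in all 4 groups.

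CBS, the first enzyme of transsulfuration, rose on neratinib in both states of 5637 and had higher CPM in every OVCAR8 library than in any 5637 library. In 5637 parental cells it was at 185, 181 and 166 CPM on neratinib, against 11.5, 11.7 and 12.7 CPM on control. In 5637 NR cells it was at 157, 123 and 145 CPM on neratinib, against 13.4, 12.7 and 13.1 CPM on control. No library on neratinib came near one on control in either state of this line. The fitted log2 rise was 3.31 ± 0.09 in NR (adjusted p 9.2e-13 by edgeR) and 3.78 ± 0.09 in parental cells (adjusted p 2.3e-13). In OVCAR8 parental cells CBS was at 399, 412 and 392 CPM on neratinib, against 288, 294 and 273 CPM on control, a log2 rise of 0.39 ± 0.08 (edgeR adjusted p 0.0023). In OVCAR8 NR cells it was at 307, 289 and 306 CPM on neratinib, against 283, 273 and 261 CPM on control. The log2 difference of 0.13 ± 0.08 was not called (edgeR adjusted p 0.53), though it was at 0.12 (adjusted p 0.033) without OVCAR8 parental control replicate 2. That library is in neither group of this contrast and enters only through the fit of all 12 libraries. The groups of that contrast did not overlap.

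CTH, which cleaves cystathionine to release cysteine, rose in 5637 in both states and in OVCAR8 parental cells. It was at 16.2, 18.9 and 20.7 CPM in 5637 NR on neratinib, against 4.72, 4.3 and 4.6 CPM on control. In 5637 parental cells it was at 16.7, 16.9 and 16.3 CPM on neratinib, against 3.81, 3.18 and 3.69 CPM on control. These are log2 rises of 1.91 ± 0.10 in NR (edgeR adjusted p 8.0e-10) and 2.11 ± 0.10 in parental cells (adjusted p 2.6e-10), and no library overlapped. In OVCAR8 NR the CPM values were 12.2, 12.1 and 12.1 on neratinib and 10.4, 11.2 and 9.95 on control, a log2 difference of 0.19 ± 0.08 that was not called (edgeR adjusted p 0.30). OVCAR8 parental cells had 30.3, 32.1 and 30.2 CPM on neratinib, against 10.2, 10.2 and 11.3 CPM on control, a log2 rise of 1.45 ± 0.08 (edgeR adjusted p 4.4e-07). The drug effect on CTH was smaller, as a log2 value, in OVCAR8 NR than in OVCAR8 parental cells, with a difference of -1.26 ± 0.11 (edgeR adjusted p 0.00014).

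CHAC1, the gamma-glutamylcyclotransferase that degrades reduced glutathione in the cytosol and an ATF4 target, rose on neratinib in all 4 settings. 5637 NR had 44.8, 30.6 and 42.1 CPM on neratinib, against 6.63, 6.03 and 7.46 CPM on control. 5637 parental cells had 81.4, 80.2 and 73.2 CPM on neratinib, against 2.66, 2.44 and 2.35 CPM on control. Control levels were thus higher in NR than in parental 5637, by 1.42 ± 0.16 log2 units (edgeR adjusted p 1.6e-06), and levels on neratinib were lower in NR. OVCAR8 NR had 13.7, 13.8 and 13.9 CPM on neratinib, against 3.43, 4.78 and 3.41 CPM on control. OVCAR8 parental cells had 70, 70.9 and 64 CPM on neratinib, against 4.49, 8.67 and 6.29 CPM on control. The log2 rise was 2.42 ± 0.13 in 5637 NR against 4.87 ± 0.15 in 5637 parental cells, and 1.84 ± 0.22 in OVCAR8 NR against 3.29 ± 0.22 in OVCAR8 parental cells, each with an edgeR adjusted p of at most 0.0029. The drug effect in NR minus that in parental cells was -2.45 ± 0.20 in 5637 (edgeR adjusted p 8.4e-07) and -1.46 ± 0.30 in OVCAR8 (adjusted p 0.013). OVCAR8 parental control replicate 2 held the control value of 8.67 CPM. Without it the log2 rise in OVCAR8 parental cells was 3.61 (edgeR adjusted p 2.5e-17), and the OVCAR8 difference of drug effects was -1.76 (adjusted p 2.8e-08).

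CHAC2, its paralog with a slower enzyme for the same reaction, fell on neratinib in 3 of the 4 settings. In 5637 NR it was at 5.31, 5.9 and 6.29 CPM on neratinib, against 9.2, 12.1 and 9.59 CPM on control, and in 5637 parental cells at 3.4, 3.54 and 4.46 CPM on neratinib, against 9.81, 7.96 and 7.2 CPM on control. The fitted log2 changes were -0.94 ± 0.14 in NR (edgeR adjusted p 7.2e-05) and -1.23 ± 0.15 in parental cells (adjusted p 5.3e-06). OVCAR8 parental cells had 3.25, 4 and 3.68 CPM on neratinib and 7.9, 7.91 and 6.19 CPM on control, a log2 change of -1.11 ± 0.15 (edgeR adjusted p 0.00020). OVCAR8 NR had 5.1, 6.06 and 6.66 CPM on neratinib and 6.83, 6.04 and 7.08 CPM on control, which overlap, and the log2 difference of -0.18 ± 0.15 was not called (edgeR adjusted p 0.67). The NR minus parental difference in drug effect on CHAC2 in OVCAR8 was 0.92 ± 0.21 (edgeR adjusted p 0.018), with adjusted p of 0.058, 0.055 and 0.057 when parental neratinib replicate 1, NR control replicate 2 or NR neratinib replicate 3 was left out. Counts of CHAC2 were 115 to 420 per library. It overlaps ASB3 and GPR75-ASB3, which had at most 77 counts, and whether counting used strand is not given in the sources used here.

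GCLC and GCLM, the catalytic and modifier subunits of glutamate-cysteine ligase, the rate-limiting enzyme of glutathione synthesis, rose on neratinib in 5637 in both states. GCLC in 5637 NR was at 59.4, 74 and 70.6 CPM on neratinib, against 29, 30.6 and 26 CPM on control, and in 5637 parental cells at 66.5, 64.5 and 68.3 CPM on neratinib, against 27.7, 28.1 and 29.4 CPM on control. Its log2 rise was 1.13 ± 0.08 in NR (edgeR adjusted p 1.4e-08) and 1.12 ± 0.08 in parental cells (adjusted p 1.1e-08), and the NR minus parental difference in drug effect was 0.01 with a 95% interval of -0.23 to 0.25. GCLM in 5637 NR was at 41.2, 49.2 and 53.8 CPM on neratinib, against 28.6, 29.9 and 24.7 CPM on control. In 5637 parental cells GCLM was at 38.3, 35.6 and 45.8 CPM on neratinib, against 18.5, 14.8 and 17.1 CPM on control. Its log2 rise was 0.67 ± 0.11 in NR (edgeR adjusted p 0.00019) and 1.14 ± 0.11 in parental cells (adjusted p 7.6e-07). The NR minus parental difference in drug effect on GCLM was -0.47 ± 0.16 and was not called by edgeR (adjusted p 0.058), while DESeq2 gave an adjusted p of 0.031.

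In OVCAR8 neither subunit was called on neratinib. GCLC in OVCAR8 parental cells was at 47, 49.4 and 48.8 CPM on neratinib and at 42, 32.5 and 44 CPM on control (log2 difference 0.20 ± 0.08, edgeR adjusted p 0.072, 0.12 with adjusted p 0.055 without parental control replicate 2, and 0.27 with adjusted p 0.028 without parental control replicate 3), and GCLM had a log2 difference of -0.00 with a 95% interval of -0.24 to 0.23. GCLM was higher in NR than in parental OVCAR8, at 57.1, 57.8 and 59.7 CPM in NR on control, against 53.1, 33.7 and 45.3 CPM in parental cells on control, by 0.37 ± 0.10 log2 units (edgeR adjusted p 0.041). It lost that call in 10 of the 12 fits that left out 1 library, and was at 0.24 (adjusted p 0.0026) without OVCAR8 parental control replicate 2. On neratinib it was at 64.2, 63.8 and 61.5 CPM in OVCAR8 NR and at 46.4, 48.3 and 45.6 CPM in OVCAR8 parental cells, a log2 difference of 0.47 ± 0.10 (edgeR adjusted p 0.0044). In 5637, too, GCLM was higher in NR than in parental cells on control, by 0.70 ± 0.11 (edgeR adjusted p 6.9e-05).

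GSS, glutathione synthetase, moved less on neratinib in 5637 than the genes above. GSR, which recycles oxidised glutathione with NADPH, was called on neratinib only in 5637 NR. Its log2 rise there, 0.62, was close to that of GCLM, 0.67. GSS in 5637 NR was at 129, 119 and 118 CPM on neratinib, against 93.8, 91.9 and 103 CPM on control, and in 5637 parental cells at 105, 109 and 106 CPM on neratinib, against 82.7, 83.4 and 79.7 CPM on control. Its log2 rise was 0.22 ± 0.06 in NR (edgeR adjusted p 0.013, and 0.062 or 0.064 without NR control replicate 1 or 2) and 0.27 ± 0.06 in parental cells (adjusted p 0.0024). CPM values are not corrected for composition, and the fitted values are. GSR in 5637 NR was at 105, 112 and 109 CPM on neratinib, against 63.8, 66.7 and 64.2 CPM on control, a log2 rise of 0.62 ± 0.05 (edgeR adjusted p 2.1e-07). In 5637 parental cells GSR was at 65.7, 66.2 and 62.9 CPM on neratinib and at 64.5, 65.4 and 62.3 CPM on control, and the log2 difference of -0.09 ± 0.05 was not called (edgeR adjusted p 0.19); with library size as the only scaling it was 0.02. The drug effect on GSR was larger in NR than in parental 5637 by 0.70 ± 0.07 log2 units (edgeR adjusted p 1.2e-05).

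In OVCAR8 GSS and GSR were not called on neratinib in either state. GSS was at 130, 133 and 129 CPM in parental cells on neratinib and at 113, 160 and 113 CPM on control, where the library that stands apart held the highest value. The log2 difference was -0.09 ± 0.14 with that library and 0.16 without it (edgeR adjusted p 0.67 and 0.0018).

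GPX4 was lower in NR than in parental 5637, and GPX2 was too. GPX4 was at 190, 198 and 210 CPM in 5637 NR on control, against 397, 379 and 401 CPM in 5637 parental cells on control, a log2 change of -0.99 ± 0.09 (edgeR adjusted p 8.8e-08). On neratinib it was at 278, 214 and 251 CPM in NR, against 410, 401 and 363 CPM in parental cells, a log2 change of -0.69 ± 0.09 (edgeR adjusted p 4.7e-06). GPX4 was not called on neratinib in either state of 5637, with log2 differences of 0.19 ± 0.09 in NR (edgeR adjusted p 0.097) and -0.11 ± 0.09 in parental cells (adjusted p 0.30). The NR value was called at 0.31 with library size as the only scaling, which moved the median of all genes to 0.12, and at 0.29 without NR neratinib replicate 2. In OVCAR8 GPX4 was at 218, 219 and 218 CPM in parental cells on neratinib and at 164, 324 and 180 CPM on control. The log2 difference was -0.15 ± 0.22 with the library that stands apart and 0.29 without it (edgeR adjusted p 0.64 and 6.5e-05).

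GPX2 had 6 to 150 counts per library. In 5637 it was at 0.186, 0.287 and 0.465 CPM in NR on control, against 1.74, 1.08 and 1.65 CPM in parental cells on control, a log2 change of -2.24 ± 0.29 (edgeR adjusted p 7.1e-06). On neratinib in 5637 it was at 0.485, 0.546 and 0.584 CPM in NR and at 3.3, 2.77 and 3.5 CPM in parental cells, so the groups did not overlap. It rose on neratinib in 5637 parental cells by 0.99 ± 0.21 log2 units (edgeR adjusted p 0.0012). In 5637 NR cells the log2 difference of 0.63 was not called (edgeR adjusted p 0.16), though the groups did not overlap. The NR minus parental difference in drug effect on GPX2 in 5637 was -0.36 and was not called either (edgeR adjusted p 0.65). In OVCAR8 all 12 libraries lay at 0.17 to 0.389 CPM, and no comparison within that line was called. GPX2 overlaps FNTB and CHURC1, of which 1 reached 2895 counts in a library, so its values are uncertain.

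Over the 10 genes, 7 rose and 1 fell on neratinib in 5637 NR, where 18.4% of all 18307 genes tested rose and 21.1% fell (39.5% in all). The 7 were CBS, CTH, CHAC1, GCLC, GCLM, GSS and GSR. In 5637 parental cells 7 rose and 1 fell where 23.9% of all genes rose and 23.5% fell (47.3% in all), with GPX2 called in place of GSR. The median log2 difference over the 10 was 0.65 in NR and 1.05 in parental 5637, against 0.00 and 0.02 over all genes. In OVCAR8 NR 1 rose and none fell (CHAC1), where 0.642% of all genes rose and 0.747% fell (1.39% in all). In OVCAR8 parental cells 3 rose and 1 fell, where 16.2% of all 18072 genes rose and 16.3% fell (32.5% in all), and the median was 0.12 against 0.01 over all genes. Without OVCAR8 parental control replicate 2 the number of the 10 called was 2 in OVCAR8 NR, where 21.3% of all genes were called, and 6 in OVCAR8 parental cells, where 49.2% were.

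**Figure D3:**
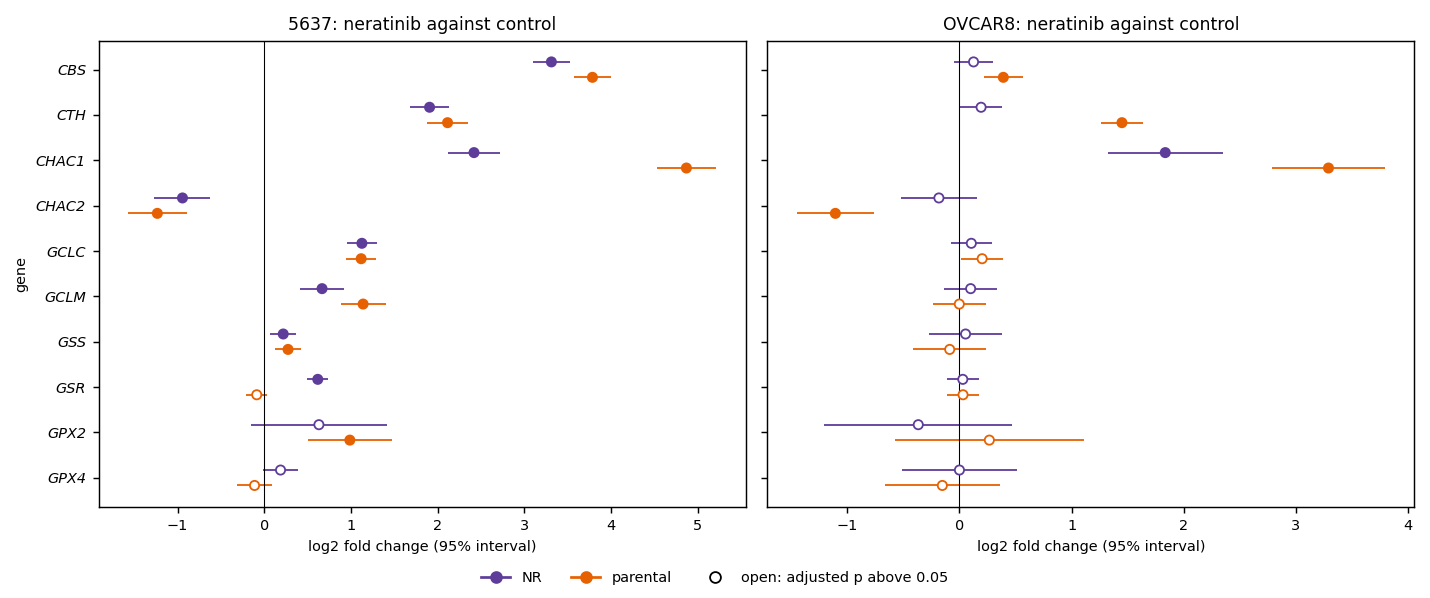
The x axis gives the log2 fold change on neratinib against control with its 95% interval, for each of the 10 genes on the y axis, in 5637 (left) and OVCAR8 (right), NR above parental cells; filled points were called. CHAC1 reached 2.42 in NR and 4.87 in parental 5637, and 1.84 in NR and 3.29 in parental OVCAR8.

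Comparing NR with parental cells on control, 4 of the 10 were higher and 2 lower in 5637 (CTH, CHAC1, GCLM and GSS higher, GPX2 and GPX4 lower), where 28.4% of all genes were higher and 28% lower (56.5% in all). Lineage markers differed between the same 5637 groups: KRT5 averaged 547 CPM in NR and 3948 CPM in parental cells on control, TP63 60.2 and 234 CPM, PAX8 44.2 and 12.1 CPM, and WT1 31.7 and 7.26 CPM, and their part in these results was not tested. CTH was at 0.34 ± 0.11 (edgeR adjusted p 0.017) and lost the call at 0.26 without parental control replicate 2 (adjusted p 0.086), and GSS was at 0.22 ± 0.06 (adjusted p 0.0090) and lost it at 0.16 without NR control replicate 3 (adjusted p 0.054). On neratinib 3 were higher (CHAC2, GSS, GSR) and 4 lower (CBS, CHAC1, GPX2, GPX4) in 5637, where 28.8% of all genes were higher and 29.2% lower (58% in all). GSS in 5637 NR on neratinib had a log2 difference of 0.16 ± 0.06 (edgeR adjusted p 0.039), lost in 7 of 12 fits that left out 1 library. In OVCAR8 NR on control GCLM was higher and CHAC1 lower, where 4.94% of all genes were higher and 4.91% lower (9.84% in all). CHAC1 there was at -0.82 ± 0.23 (edgeR adjusted p 0.041) with overlapping groups, lost its call in 9 of 12 fits that left out 1 library, and at -0.52 without OVCAR8 parental control replicate 2 (adjusted p 0.0084). Without that replicate GSR was called too, at 0.21 (adjusted p 0.0014), and 22.8% of all genes were. On neratinib in OVCAR8, CHAC2 and GCLM were higher in NR and CBS, CTH and CHAC1 lower, where 14.6% of all genes were higher and 16.4% lower (31% in all). CTH was lower by 1.31 and CHAC1 by 2.27 log2 units in OVCAR8 NR on neratinib, while CHAC2 was higher by 0.74. Without OVCAR8 parental control replicate 2, GSS at -0.10, GSR at 0.16 and GPX4 at -0.29 were called as well on neratinib, and 55.5% of all genes were.

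**Figure D4:**
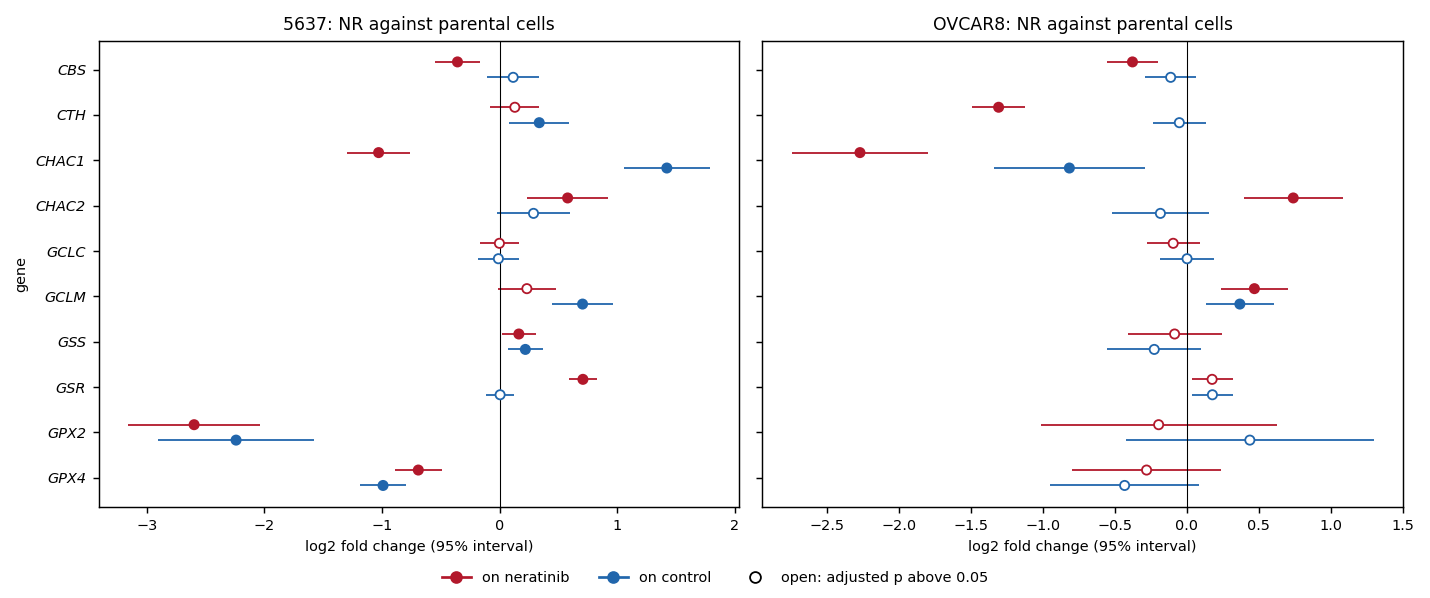
The x axis gives the log2 fold change of NR against parental cells with its 95% interval, on neratinib (upper point of each pair) and on control (lower point), for each of the 10 genes on the y axis in 5637 (left) and OVCAR8 (right); filled points were called. GPX2 and GPX4 in 5637 lie at -2.60 and -0.69 on neratinib and at -2.24 and -0.99 on control.

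The signed difference in drug effect between NR and parental cells was called for 3 of the 10 in 5637 (GSR higher, CBS and CHAC1 lower), where 7.39% of all genes were higher and 6.48% lower (13.9% in all). CBS was at -0.47 ± 0.13 there (edgeR adjusted p 0.019) and lost its call in 5 of 12 fits that left out 1 library, with a highest adjusted p of 0.057. In OVCAR8 it was called for CHAC2 (higher) and CTH and CHAC1 (lower), where 4.62% of all genes were higher and 4.21% lower (8.83% in all). Without OVCAR8 parental control replicate 2, 6 of the 10 were called and 32.8% of all genes were, with CBS at -0.35, GCLM at 0.21 and GPX4 at -0.30 added. GPX4 was at 0.15 ± 0.32 with that library.

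Parental 5637 on control differed from parental OVCAR8 on control in 9 of the 10 genes, where 35.1% of all 20250 genes were higher in 5637 and 36.8% lower (72% in all, and 72.8% without OVCAR8 parental control replicate 2, where the same number of the 10 was called). GPX2 and GPX4 were higher in 5637, by 2.69 ± 0.30 and 0.80 ± 0.18 (GPX4 1.24 without OVCAR8 parental control replicate 2), and CBS, CTH, CHAC1, GCLC, GCLM, GSS and GSR were lower. CBS stood out among these, at 11.5 to 12.7 CPM in 5637 and 273 to 294 CPM in OVCAR8, a log2 difference of -4.57 ± 0.10 (edgeR adjusted p 2.0e-21). CTH, GCLM and CHAC1 were lower in 5637 by 1.56, 1.38 and 1.38 log2 units. Without OVCAR8 parental control replicate 2 they were at -1.54, -1.50 and -1.07. GSS was at -0.66, and at -0.42 without OVCAR8 parental control replicate 2.

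Drug effects of the lines were compared as log2 values, from control levels that differed between the lines. Mean CTH, for example, rose from 3.56 to 16.6 CPM in parental 5637 and from 10.6 to 30.9 CPM in parental OVCAR8. The log2 drug effect was larger in 5637 than in OVCAR8 for 5 of the 10 genes in parental cells (CBS, CTH, CHAC1, GCLC, GCLM), and none of the 10 was called lower. Of all genes, 4.83% had a higher and 5.46% a lower signed difference there (10.3% in all). Among NR cells 5 of the 10 had a larger effect in 5637 (CBS, CTH, GCLC, GCLM, GSR) and CHAC2 a lower signed value (-0.94 in 5637 NR and -0.18 in OVCAR8 NR), where 4.78% of all genes had a higher and 5.04% a lower signed difference (9.82% in all). CBS differed most, by 3.20 ± 0.12 in NR and 3.40 ± 0.12 in parental cells. Without OVCAR8 parental control replicate 2, 18.6% of all genes were called in parental cells and 19.9% in NR cells, GPX4 was called lower in parental cells at -0.39 (0.05 with that library), and CHAC1 was called in NR cells at 0.57. Calls of CHAC2 (-0.75 ± 0.21) and GCLM (0.58 ± 0.16) between NR cells were each lost in 4 of 24 fits that left out 1 library. The signed NR against parental difference on control was higher in 5637 than in OVCAR8 for CTH, CHAC1 and GSS. It was lower for GPX2, which was at -2.24 in 5637 and, not called, at 0.44 in OVCAR8, where 18.1% of all genes were higher and 14.8% lower (32.9% in all). CTH (0.41 ± 0.13) lost that call in 4 of 24 fits that left out 1 library and GSS (0.46 ± 0.16) in 7 of 24. Without OVCAR8 parental control replicate 2, where 39.1% of all genes were called, GPX4 was called at -0.98, GCLM at 0.48 and GSR at -0.18, and GSS was at 0.22 (adjusted p 0.030).

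Other genes of the pathway were counted by lists. The shares of all genes that rose or fell, given above, are their background. Cystine import, SLC7A11 and SLC3A2, rose on neratinib in all 4 settings, 2 of 2 genes each time, with a median log2 rise of 1.93 in 5637 NR, 2.26 in 5637 parental cells, 1.09 in OVCAR8 NR and 2.20 in OVCAR8 parental cells. ATF4 targets outside sulfur metabolism rose in 11 of 14 tested genes in 5637 NR (2 fell), in 13 of 14 in 5637 parental cells (0 fell), in 4 of 15 in OVCAR8 NR and in 14 of 15 in OVCAR8 parental cells. NRF2 targets outside glutathione metabolism rose in 9 of 13 and fell in 1 in 5637 NR, and rose in 8 of 13 and fell in 3 in 5637 parental cells, but rose in 2 of 12 in OVCAR8 NR and in 4 of 12 in OVCAR8 parental cells (1 fell there). The thioredoxin, glutaredoxin and peroxiredoxin list had more genes lower than higher in 3 of the 4 settings, with 2 higher and 8 lower of 16 in 5637 NR, 2 higher and 11 lower of 16 in 5637 parental cells, and 2 higher and 8 lower of 15 in OVCAR8 parental cells. In OVCAR8 NR none of the 15 rose, 1 fell and 14 were not called, with a median of -0.03. Within it, TXNRD1, thioredoxin reductase, rose by 0.64 in 5637 NR and 0.93 in 5637 parental cells, and the peroxiredoxin PRDX3 fell by 0.53 and 0.63. The methionine cycle list had 2 higher and 2 lower of 8 in 5637 NR and 1 higher and 4 lower of 8 in 5637 parental cells, with MAT2A, which makes S-adenosylmethionine, at -0.32 in the parental cells. NADPH supply had 6 higher and 2 lower of 11 in 5637 NR, with IDH1 at 0.86 and ME1 at 0.85, and 3 higher and 3 lower of 11 in 5637 parental cells. Cysteine breakdown had 2 higher and 2 lower of 9 in each state of 5637. The gamma-glutamyl cycle list had 1 higher and 1 lower of 6 in 5637 NR and 2 higher and 3 lower of 6 in 5637 parental cells, and the other glutathione peroxidases had 2 higher and 2 lower of 4 in 5637 NR and 2 higher and 1 lower of 4 in 5637 parental cells. Glutathione transferases had 7 higher and 1 lower of 13 in 5637 NR and 5 higher and 4 lower of 13 in 5637 parental cells. GSTM4 rose most among the called transferases with a mean of at least 5 CPM, by 1.26 in 5637 NR and 0.76 in 5637 parental cells. Without OVCAR8 parental control replicate 2, 21.3% of all genes were called in OVCAR8 NR and 49.2% in OVCAR8 parental cells. In those fits ATF4 targets had 13 of 15 called, in either direction, in NR and 15 of 15 in parental cells. NRF2 targets had 3 of 12 and 8 of 12 called, and glutathione transferases 4 of 14 and 12 of 14. With that library, none of the 14 transferases was called in OVCAR8 NR, and 3 rose and 3 fell in OVCAR8 parental cells.

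**Figure D5:**
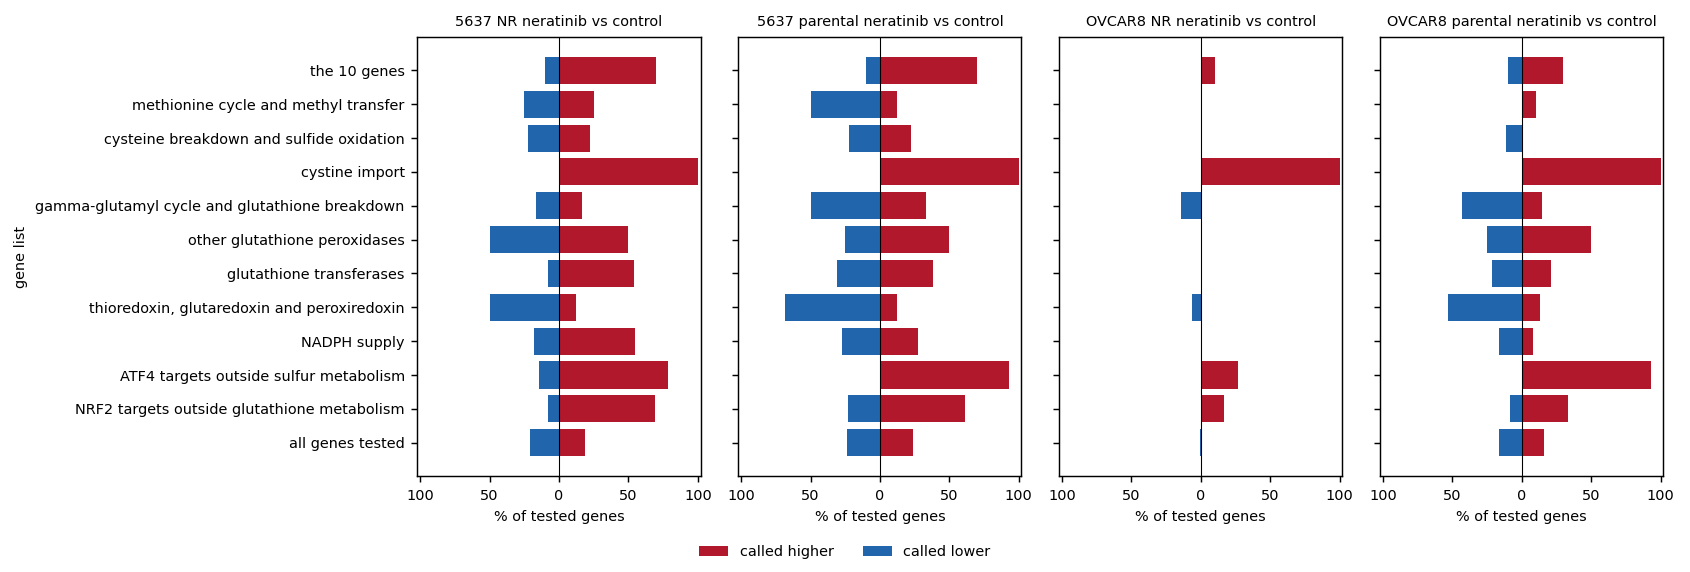
The x axis gives the percent of tested genes called higher (right) and lower (left) on neratinib against control, and the y axis the gene lists, in 5637 NR, 5637 parental, OVCAR8 NR and OVCAR8 parental cells. Cystine import reached 100% higher in every panel, while all genes tested had 18.4% higher and 21.1% lower in 5637 NR.

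Likeness of pattern was described by Pearson's r over the 24 libraries, after subtracting the mean of each line, among 11187 genes. It used log2 CPM with the library totals scaled by TMM, as in the fits. The genes share libraries and conditions, so r is a description. CBS was most like CREB3L1 (r 0.98), CTH most like CEBPG (0.98), CHAC1 most like GPT2 (0.98) and DDIT3 (0.98), and CHAC2 most like GNL3 (0.96). GCLC was also most like CREB3L1 (0.97), GPX4 was most like RPL19 (0.97), GSS most like UPP1 (0.95), GPX2 most like SSBP2 (0.94), GCLM most like TMEM167B (0.92) and GSR most like DIO2 (0.89). Within the 10 genes, CBS and GCLC had an r of 0.97, CTH and CHAC1 0.94, and CHAC1 and CHAC2 -0.86. These values pool both lines and were not computed within each line. They include OVCAR8 parental control replicate 2, and none was computed without it. In that library GPX4 and GSS had log2 ratios of 0.91 and 0.50 to the mean of the other controls, and its part in these values was not tested. The log2 difference of CBS on neratinib was 3.31 in NR and 3.78 in parental 5637, against 0.13 and 0.39 in OVCAR8. That of GCLC was 1.13 and 1.12 in 5637, against 0.11 and 0.20, both uncalled, in OVCAR8.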

How the data were processed

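The deposited table holds whole-number read counts per gene, with the authors' gene length, hg19 coordinates and symbol. Poly(A) RNA went into a strand-specific library kit and was sequenced paired-end, per the labels' protocols. The submitters' processing notes name STAR 2.5.3a, DESeq2 1.18.1, featureCounts 1.15.2 and FastQC, in no stated order. Whether counting used strand is not given in the sources used here, so overlapping genes cannot be told apart.

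Each line was fitted alone (12 libraries, 4 group means), and differences between lines with all 24. The groups of a fit share the estimate of the spread, so a library can change calls in contrasts that do not hold it. After filterByExpr and TMM scaling, genes were tested with the quasi-likelihood test of edgeR 4.0.16 in R 4.3.3, with Benjamini-Hochberg adjustment over all 18307 (5637), 18072 (OVCAR8) or 20250 (both lines) genes. CPM and RPKM were computed from the deposited counts over the library total, and RPKM with the deposited length. Library totals of 23.8 M to 48.5 M counts limit GPX2 most. The 10 genes, the lists and the tests were chosen with earlier results of these data known. All 10 genes are named; of each list, those named come from at most 2 higher and 2 lower called genes with the largest change at a mean of at least 5 CPM. Likeness used log2 CPM scaled by TMM, with a prior count of 2. Promoter windows are from RefSeq (GRCh38.p14), and no coordinate was moved between builds. Each SE is the log2 difference over the square root of the F statistic. The fits were tested on simulated counts. These had the same dispersion in every gene and no library like OVCAR8 parental control replicate 2, so they do not cover fits that hold it.

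Alternatives were the DESeq2 1.42.0 test, its size factors inside edgeR, scaling by library size alone, dropping the filter or setting it at 1 CPM in 3 libraries, blocking on replicate number, fitting the 6 compared libraries by themselves, and omitting each library in turn. Replicate numbers were not used as pairs, since nothing in the labels ties them together. Figures were drawn with matplotlib.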

Additional observations from a re-analysis of the deposited data

Results flagged for a closer look

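Differences of differences that passed the threshold were taken as results for a closer look, each tested as its own contrast in edgeR (adjusted p at most 0.05); all are signed log2 values.

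Between NR and parental cells, the drug effect in 5637 was lower in NR for CBS (-0.47) and CHAC1 (-2.45) and higher for GSR (0.70). In OVCAR8 it was lower in NR for CTH (-1.26) and CHAC1 (-1.46) and higher for CHAC2 (0.92), which was at -0.18 in NR and -1.11 in parental cells. CHAC1 was the gene called in both lines. Of the fits that left out 1 library, 5 of 12 lost the call of CBS in 5637 and 3 of 12 that of CHAC2 in OVCAR8.

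Between 5637 and OVCAR8, the drug effect in parental cells was larger in 5637 for CBS (3.40), CTH (0.68), CHAC1 (1.58), GCLC (0.93) and GCLM (1.151). In NR cells it was larger in 5637 for CBS (3.20), CTH (1.72), GCLC (1.03), GCLM (0.58) and GSR (0.60), and CHAC2 fell more in 5637 (-0.75). In NR cells the calls of GCLM and CHAC2 were each lost in 4 of 24 fits that left out 1 library. The doses differed, so line and dose cannot be told apart.

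The difference of NR from parental cells on control was higher in 5637 than in OVCAR8 for CTH (0.41), CHAC1 (2.25) and GSS (0.46), and lower for GPX2 (-2.66). Of the fits that left out 1 library, 4 of 24 lost the call of CTH and 7 of 24 that of GSS.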

How the results depend on the processing

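The fits without OVCAR8 parental control replicate 2 changed more results than any other setting run, and depth limits GPX2 most. No called value of the 10 genes changed sign under any alternative run. Outside the fits that left out 1 library, 864 member results kept their direction and side of the threshold, 7 lost a call, 19 gained one and 25 uncalled ones changed sign. Each of these 25 was below 0.1 in absolute log2 value, and the cause was not tested. The number of the 10 called in the 5637 interaction between drug and resistance was 5 with no filter, against 3. In OVCAR8 NR against parental cells on control it was 0 by edgeR with the 6 libraries alone (2 at an unadjusted p under 0.05), against 2 by edgeR and 3 by DESeq2 with all 12 libraries, and in OVCAR8 NR on neratinib it was 2, against 1.

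Same-numbered libraries had deviations from their group means correlated at -0.16 to 0.13. Libraries of different number were not compared in this way, so these values cannot settle whether the numbers mark pairs. With the replicate block the number of the 10 called in OVCAR8 NR against parental cells on control was 1, against 2, and GSS in 5637 NR against parental cells on neratinib lost its call (adjusted p 0.062). Over all genes, the block called 98 genes in OVCAR8 NR on neratinib, against 251.

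Over all genes, OVCAR8 NR on neratinib had 806 calls with DESeq2 and 3641 with the 6 libraries alone, against 251. The OVCAR8 difference of drug effects had 2486 with DESeq2, against 1595. With the 6 libraries alone, the calls were 2865 against 5868 for OVCAR8 parental cells on neratinib, 490 against 1779 for NR against parental OVCAR8 on control and 10401 against 5596 on neratinib.

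The values that changed sign, with the reported value in parentheses, were the following log2 differences. In 5637 NR against parental cells on neratinib, GCLC (-0.0027) was 0.0093 with DESeq2, 0.0095 with its size factors, 0.033 by library size only, 0.0072 with no filter and 0.014 with the 6 libraries alone. On neratinib in 5637 parental cells, GSR (-0.087) was 0.020 by library size only. In 5637 NR against parental cells on control, GCLC (-0.011) was 0.0046 by library size only and GSR (0.0032) was -0.0013 with no filter. On neratinib in OVCAR8 NR, GPX4 (0.00015) was -0.0054 with DESeq2, -0.0054 with its size factors, -0.010 with the 1 CPM filter and -0.0083 with the 6 libraries alone. In OVCAR8 NR against parental cells on control, GCLC (0.00061) was -0.0042 with DESeq2, -0.0040 with its size factors and -0.00034 with the 6 libraries alone. In the OVCAR8 drug effect of NR minus parental cells, GSR (-0.0020) was 0.0085 with DESeq2 and 0.0093 with its size factors. On neratinib in OVCAR8 parental cells, GCLM (-0.0010) was 0.087 by library size only, 0.012 with no filter, 0.0059 with the replicate block and 5.4e-05 with the 6 libraries alone and GSS (-0.087) was 0.026 by library size only. In the NR against parental difference of 5637 minus OVCAR8 on control, GCLC (0.0070) was -0.034 by library size only, -0.0011 with no filter and -0.016 with the 1 CPM filter.

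Leaving out 1 library at a time gave these ranges of log2 differences, or of counts where named. In 5637 NR against parental cells on control, GCLC ran from -0.059 to 0.044 and GSR from -0.020 to 0.025. In 5637 NR against parental cells on neratinib, GCLC ran from -0.063 to 0.075. In the 5637 drug effect of NR minus parental cells, GCLC ran from -0.053 to 0.086, GSS from -0.11 to 0.010 and GPX2 from -0.63 to 0.085. On neratinib in OVCAR8 parental cells, GCLM ran from -0.12 to 0.12, GSS from -0.20 to 0.16 and GPX4 from -0.36 to 0.29. On neratinib in OVCAR8 NR, the count of the 10 called ran from 1 to 2 and GPX4 from -0.039 to 0.041. In OVCAR8 NR against parental cells on control, GCLC ran from -0.079 to 0.060, GSS from -0.34 to 0.022, GPX4 from -0.64 to 0.010 and the count of the 10 called from 0 to 3. In OVCAR8 NR against parental cells on neratinib, the count of the 10 called ran from 5 to 8 and GPX2 from -0.43 to 0.070. In the OVCAR8 drug effect of NR minus parental cells, GCLM ran from -0.024 to 0.21, GSR from -0.042 to 0.028, the count of the 10 called from 2 to 6, GSS from -0.12 to 0.26 and GPX4 from -0.30 to 0.36. In the parental drug effect of 5637 minus OVCAR8, GPX4 ran from -0.39 to 0.27. In the NR against parental difference of 5637 minus OVCAR8 on control, GCLC ran from -0.089 to 0.089 and the count of the 10 called from 2 to 7.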
